A study of Homo sapiens with 12 samples.

Results

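The nuclear-encoded subunits of the respiratory chain and of ATP synthase were examined in LM2 cells, which descend from MDA-MB-231, a human breast cancer line, and were selected for spread to the lung. They were chosen by symbol: the NDUFA, NDUFB, NDUFC, NDUFS and NDUFV genes of complex I, SDHA to SDHD of complex II, the UQCR genes and CYC1 of complex III, the COX4 to COX8 genes of complex IV and the ATP5A to ATP5L genes of complex V. This gave 80 genes of the 24556 distinct symbols in the deposited table, each with a single row. Of these, 35 belonged to complex I, 4 to complex II, 9 to complex III, 18 to complex IV and 14 to complex V. NDUFA4, named for complex I, was counted with complex IV, where the protein is found.

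The study held 12 libraries in 4 groups of 3. They were LM2 cells with an shRNA against EZH2, LM2 cells with a scramble shRNA, LM2 cells with an siRNA against ZRANB1, and LM2 cells with a scramble siRNA. All 4 groups were 1 cell line. The labels state transduction for the shRNA groups and transfection for the siRNA groups. They name no clone, number of hairpins or time after delivery. EZH2 is the histone H3 lysine 27 methyltransferase of Polycomb repressive complex 2, and ZRANB1 removes ubiquitin from proteins. Expression was given as FPKM, fragments scaled by the length of the transcript and the size of the library.

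The respiratory chain sits in the inner mitochondrial membrane. Complexes I and II pass electrons from NADH and succinate to ubiquinone, complex III passes them to cytochrome c and complex IV to oxygen; complexes I, III and IV pump protons as they do so, and complex V uses the proton gradient to make ATP. Most subunits are encoded in the nucleus and imported, while the core membrane subunits of complexes I, III, IV and V come from the mitochondrial genome, so assembly draws on both. The promoters of nuclear subunit genes are known for sites of NRF1, of ETS factors such as GABP, and of YY1.

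The labelled targets were checked first. EZH2 had 16.1, 16.1 and 17.3 FPKM with EZH2 shRNA, against 34.2, 35.6 and 36.3 FPKM with scramble shRNA. ZRANB1 had 9.05, 9.49 and 11.5 FPKM in the libraries labelled ZRANB1 siRNA, against 10.5, 11.5 and 12.1 FPKM with scramble siRNA; the ranges overlapped and the difference was not called (adjusted p = 0.35, limma). The summed level of 6 genes of the MDA-MB-231 lineage was between 3406 and 4109 FPKM in the 4 groups, most of it VIM (2573 to 2836 FPKM). Of the others on that list, S100A4 averaged 105 FPKM with EZH2 shRNA, 406 with scramble shRNA, 49.6 with ZRANB1 siRNA and 16.3 with scramble siRNA. In the same order of groups, CD44 averaged 261, 264, 206 and 118 FPKM and CAV1 226, 273, 250 and 333. AXL averaged 340, 316, 310 and 349 FPKM and ZEB1 15.7, 13.9, 15.4 and 16.0 in that order. A list of 6 striated muscle genes summed to at most 0.382 FPKM, with MYH7 and COX6A2 at 0 throughout. Lists of fibroblast genes (5), epithelial genes (4), luminal breast genes (7), and blood and endothelial genes (5) were measured as well, and their sums are given beside the comparisons. In every group most of the luminal sum was KRT8 (184 to 267 FPKM) and KRT18 (247 to 353 FPKM). Most of the blood and endothelial sum was CD68 (34.4 to 41.7 FPKM).

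In the deposited rows, the 3 values of a group were sorted as text strings, and a column therefore did not stand for the same library in every gene. The values of a gene are therefore given from low to high, without a replicate number.

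The tested members spanned a wide range of levels, which is shown in the plot of group means. Of the 80, 72 averaged 1 FPKM or more across all 12 libraries and were tested. Complex I ran from 10.0 FPKM for NDUFA5, an accessory subunit of the quinone module, to 251 FPKM for NDUFA11, a membrane arm subunit, a 25.0-fold range. Complex II ran from 32.2 FPKM for SDHC to 108 FPKM for SDHD, the pair that forms its membrane anchor. Complex III ran from 32.4 FPKM for UQCRB, the ubiquinone-binding protein, to 286 FPKM for UQCRH, the hinge protein. Complex IV held the most abundant member, COX7C at 871 FPKM, and its lowest tested member was NDUFA4 at 30.3 FPKM. Complex V ran from 56.2 FPKM for ATP5G3 to 497 FPKM for ATP5B (current symbol ATP5F1B), the catalytic beta subunit of the F1 head. Members of 1 complex thus differed by between 3.34-fold in complex II and 28.8-fold in complex IV in these per-length units.

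**Figure D1:**
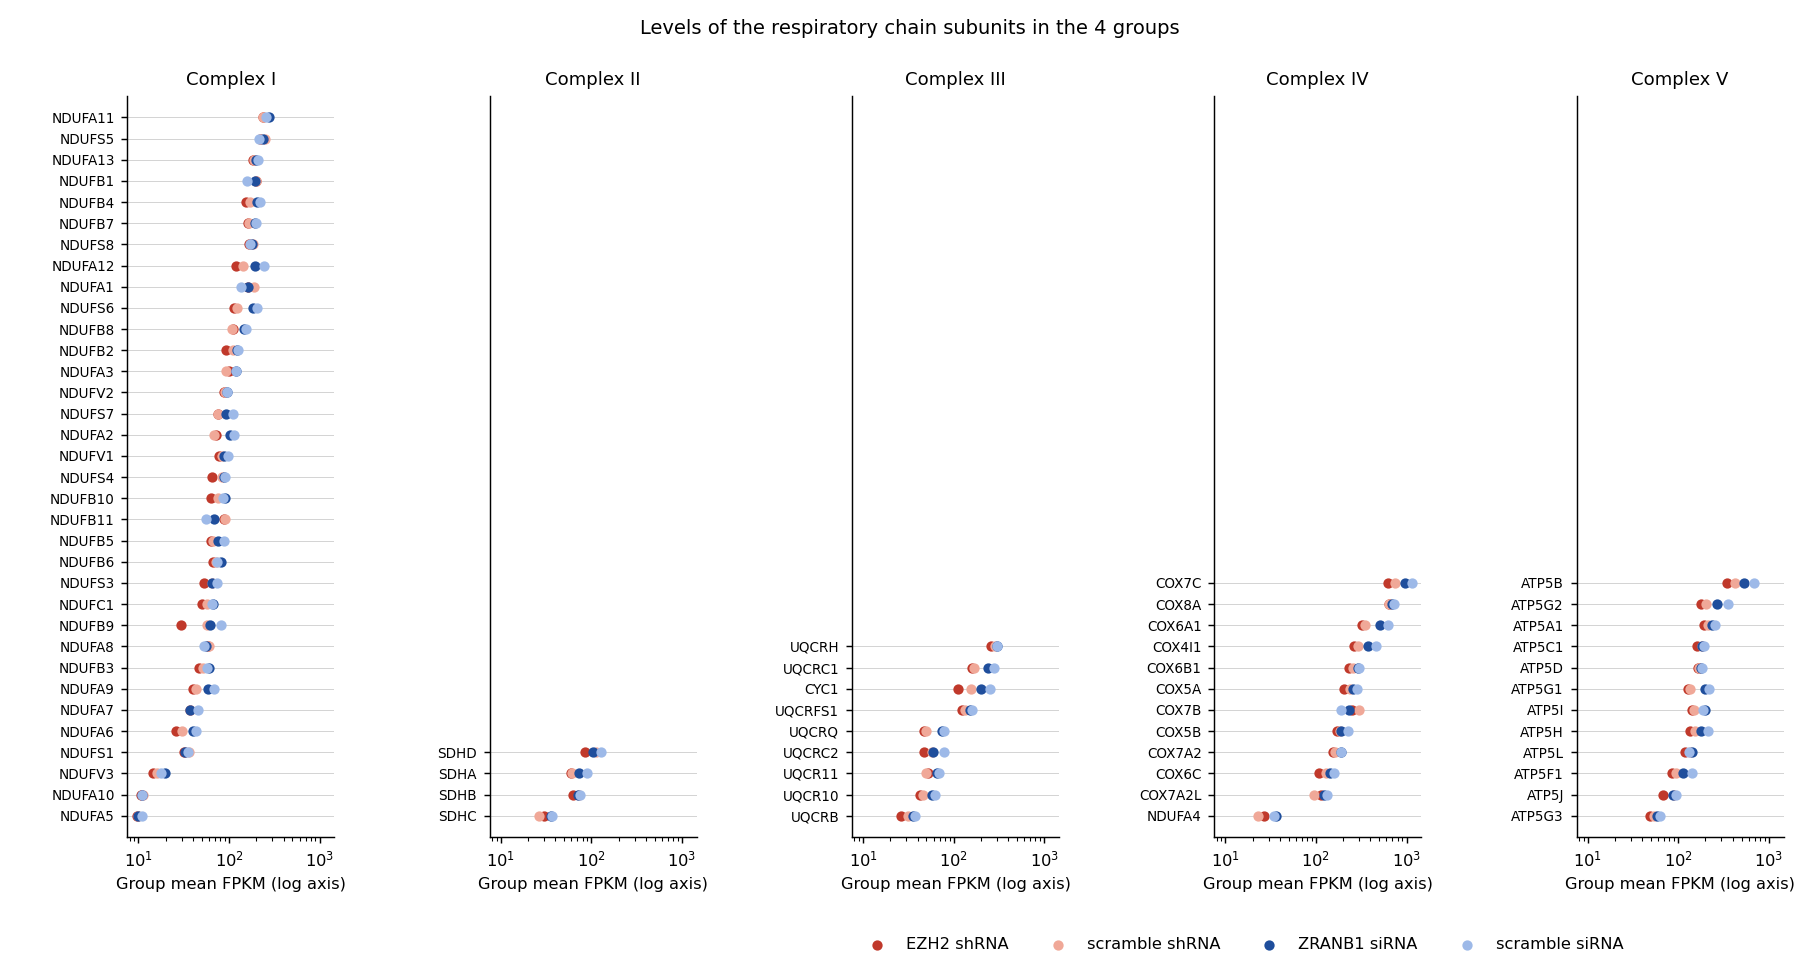
Group mean FPKM (log axis) of the tested subunits (1 of complex I is not drawn), with a panel for each complex and a point for each of the 4 groups; members run from lowest to highest. Over all 72 tested, the EZH2 shRNA mean was the lowest of the 4 for 56 members, and the scramble siRNA mean was the highest for 52.

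Where a subunit has isoforms, the widely expressed form carried the level and the tissue-restricted form was near or at 0. COX4I1 averaged 261 ± 45.1 FPKM with EZH2 shRNA, 294 ± 21.2 with scramble shRNA, 377 ± 28.3 with ZRANB1 siRNA and 464 ± 39.1 with scramble siRNA (SD, n = 3 each). COX4I2, its partner induced by low oxygen, was listed at 0 in 11 of 12 values and at 0.252 FPKM in a single ZRANB1 siRNA library. COX6A2 (the heart and muscle form, beside COX6A1) and COX8C (the testis form, beside COX8A) were listed at 0 in all 12. COX6B2, the testis form beside COX6B1, lay between 0.176 and 0.724 FPKM, and COX7A1, the muscle form beside COX7A2, between 0 and 0.471 FPKM. NDUFA4L2, the hypoxia-induced relative of NDUFA4 that lies outside the symbol rule, did not pass 0.133 FPKM in any library. Of the 3 genes for the c subunit of the ATP synthase ring, which encode 1 mature protein, ATP5G2 was the highest and ATP5G3 the lowest in every group. The symbols ATP5EP2 and ATP5L2 did not pass 0.337 FPKM. ATP5EP2 (current symbol ATP5F1EP2) was counted with complex V by its symbol alone and had no coding length in GENCODE.

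COX7B2, the testis form beside COX7B, was the exception. It had 1.86, 2.205 and 4.79 FPKM in the 3 scramble shRNA libraries, while it was listed at 0 in all 3 EZH2 shRNA, all 3 ZRANB1 siRNA and all 3 scramble siRNA libraries. Its mean over the 12 values was under 1 FPKM, so it was not among the 72 tested. With no filter on low values, limma called it lower with EZH2 shRNA and with scramble siRNA than with scramble shRNA. The groups listed at 0 have no spread, so no p is given and these calls are not counted as a result. An exact 0 in FPKM can stand for a failed estimate, so no fold is given.

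The first comparison asked how the subunits stood when EZH2 was knocked down. NDUFB9, ATP5B and SDHB fell with EZH2 shRNA and no member rose, which is 3 of 72 members called against 6.41% of all 11929 tested genes called in either direction. The 3 lower calls were 4.17% of the members, against 3.03% of all genes called lower, a share near the background; the share of all genes called higher was 3.39%. At an unadjusted p below 0.05, 21 members passed (29.2%), against 21.4% of all tested genes. The median log2 fold change of the members was -0.14, beside -0.01 for all tested genes, and it was negative for 63 of 72 members (87.5%), against 53.0% of all tested genes. It was similar in every complex: -0.13 in complexes I, II and IV, -0.12 in complex III and -0.15 in complex V.

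NDUFB9, an accessory subunit of the membrane arm of complex I, had 27.7, 28.7 and 32.4 FPKM with EZH2 shRNA, against 51.2, 56.0 and 64.1 FPKM with scramble shRNA. Every EZH2 shRNA value lay below every scramble shRNA value. The log2 fold change was -0.92 (SE 0.10, adjusted p = 5.12e-04, limma with Benjamini-Hochberg adjustment), or 0.519 times the scramble shRNA mean. The exact permutation test of this gene alone gave p = 0.1, the smallest that 3 values against 3 allow (two-sided). NDUFB9 was the sole complex I member called here; the next largest difference in the complex was that of NDUFS4, an N module subunit, at -0.35 (adjusted p = 0.14).

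ATP5B had 342, 349 and 359 FPKM with EZH2 shRNA, against 409, 433 and 436 FPKM with scramble shRNA, with no overlap. Its log2 fold change was -0.28 (SE 0.05, adjusted p = 0.0073, limma), and the call was lost when the 6 values of the 2 groups were fitted alone (adjusted p = 0.094). SDHB, the iron-sulphur subunit of complex II, had 61.5, 62.9 and 64.5 FPKM with EZH2 shRNA, against 70.5, 72.5 and 76.2 FPKM with scramble shRNA. Its log2 fold change was -0.21 (SE 0.056, adjusted p = 0.048, limma), and the call was lost in 18 of the 20 other fits tried.

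The uncalled members were bounded rather than shown to be alike. For 62 of the 69 uncalled members the 95% interval of the log2 fold change lay within 0.5 of 0, and for all 69 within 1. In complex III the largest difference was that of CYC1, the haem-bearing cytochrome c1, with 90.3, 112 and 137 FPKM against 132, 163 and 174 FPKM with scramble shRNA; the ranges overlapped (log2 fold change -0.47, adjusted p = 0.11, limma). ATP5J, a peripheral stalk subunit of complex V, had 56.0, 70.3 and 77.8 FPKM with EZH2 shRNA, against 87.7, 89.2 and 90.7 FPKM with scramble shRNA, and missed the threshold (log2 fold change -0.40, adjusted p = 0.052, limma). COX7A2L, a factor that joins complexes III and IV, lay the other way, at 107, 112 and 119 FPKM with EZH2 shRNA, against 83.5, 99.6 and 101 FPKM with scramble shRNA (adjusted p = 0.14). It was the single member whose 3 EZH2 shRNA values all lay above the scramble shRNA values, while 17 members had all 3 below; over all tested genes these shares were 10.6% above and 11.6% below. Over the 4 groups, the EZH2 shRNA mean was the lowest for 56 members (77.8%, against 27.8% of all tested genes) and the highest for none (against 24.8%). This rank also holds the difference between the controls. The log2 fold change of scramble siRNA against scramble shRNA was positive for 62 of 72 members, with a median of 0.27. In RNA from a whole culture, a lower level per cell and fewer cells holding the RNA cannot be told apart. The fibroblast list summed to 20.1 FPKM with EZH2 shRNA and 25.4 with scramble shRNA, nearly all of it COL1A1; the epithelial list summed to 12.3 and 12.8, the luminal list to 436 and 469, and the blood and endothelial list to 37.7 and 37.0. Their part in the result was not tested.

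The genes beside NDUFB9 were looked at after its value was seen, since it stood apart from the rest of complex I. Its tested neighbours were taken as 5 on each side in RefSeq gene order on chromosome 8. TATDN1, the next tested gene on 1 side, fell as well (log2 fold change -0.57, adjusted p = 0.041), as did SQLE (-0.60, adjusted p = 0.018) and KIAA0196 (-0.66, adjusted p = 0.0043), the next 2 on the other side. TMEM65, 3 places away, rose (0.65, adjusted p = 0.037, all limma). The median of the 10 neighbours was -0.30 and 7 of 10 were negative. The other 3 subunit genes on chromosome 8, CYC1, UQCRB and COX6C, were at -0.47, -0.23 and -0.25, none of them called, while the median of the 395 other tested genes of the chromosome was -0.08.

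**Figure D2:**
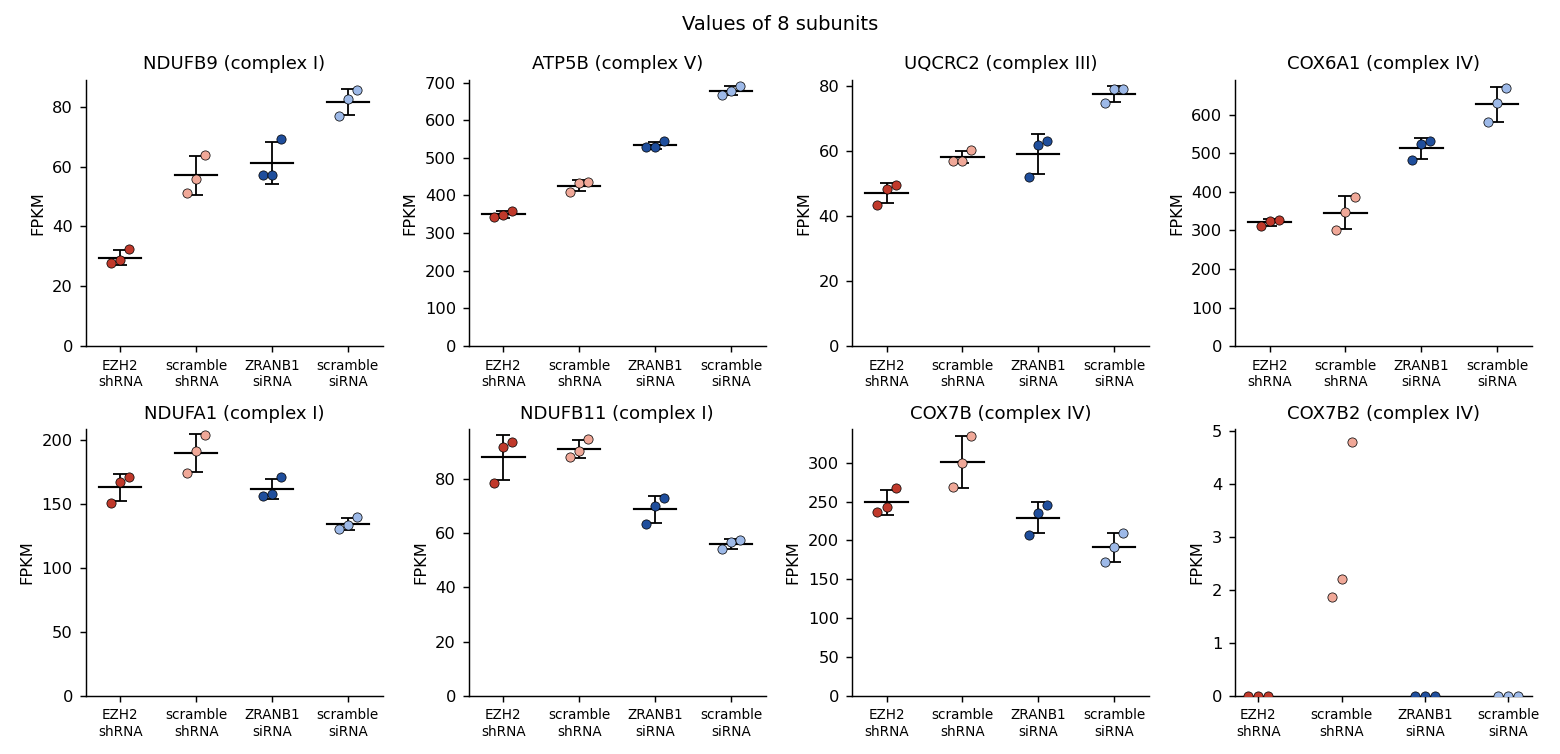
FPKM of 8 subunits in the 4 groups, each group with EZH2 shRNA or ZRANB1 siRNA left of its scramble control; points are the 3 libraries from low to high, and bars are the mean and SD (none for COX7B2, which is listed at 0 in 3 groups). The 3 EZH2 shRNA values of NDUFB9 lie between 27.7 and 32.4 FPKM, below every other value of the gene.

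The second comparison set the libraries labelled ZRANB1 siRNA against scramble siRNA. In all 10 members fell, among them ATP5B, UQCRC2, ATP5G2, NDUFB9, NDUFA12, ATP5F1, ATP5H, COX7C and COX6A1, and NDUFB11 and NDUFA1 rose. These 12 calls are 16.7% of the members, against 16.6% of all tested genes, so the number called was at the background. The direction differed from it: 13.9% of members were called lower, against 6.5% of all genes, and 2.78% were called higher, against 10.1%. The median log2 fold change was -0.09 for the members and -0.02 for all genes. By complex, 3 fell and 2 rose in complex I, none was called in complex II, 1 fell in complex III, 2 fell in complex IV and 4 fell in complex V.

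ATP5B had 528, 528 and 544 FPKM with ZRANB1 siRNA, against 666, 679 and 689.6 FPKM with scramble siRNA (log2 fold change -0.35, SE 0.05, adjusted p = 6.39e-04, limma). UQCRC2, a core protein of complex III, had 52.0, 61.8 and 63.2 FPKM with ZRANB1 siRNA, against 74.8, 79.0 and 79.2 FPKM with scramble siRNA (-0.40, SE 0.083, adjusted p = 0.0070). In neither gene did the groups overlap. All 3 ZRANB1 siRNA values lay below the scramble siRNA values for 24 members and for 18.0% of all tested genes. ATP5G2 had 257, 268 and 279.9 FPKM with ZRANB1 siRNA, against 334, 342 and 385 FPKM with scramble siRNA (-0.40, SE 0.087, adjusted p = 0.0096, limma). The calls of these 3 held in all 20 other fits, and those of the other 8 members named above were each lost in between 4 and 12 of them; none of the 12 called members reached a log2 fold change of 0.5 in either direction.

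Among those, NDUFB9 had 57.1, 57.2 and 69.3 FPKM with ZRANB1 siRNA, against 77.0, 82.5 and 85.7 FPKM with scramble siRNA (-0.42, adjusted p = 0.018, limma). ATP5B and NDUFB9 were thus the members called lower both with EZH2 shRNA and in the libraries labelled ZRANB1 siRNA. These comparisons share no libraries, but the fit used the same estimate of each gene's spread in both (SE 0.05 for ATP5B, 0.10 for NDUFB9). The calls are therefore not independent. The peripheral stalk subunits ATP5F1 (subunit b) and ATP5H (subunit d) were at -0.34 and -0.25. In complex IV, COX7C was at -0.26 and COX6A1 at -0.29, with COX6A1 at 482, 526 and 532 FPKM with ZRANB1 siRNA, against 581, 631 and 671 FPKM with scramble siRNA. NDUFA12, an N module subunit, was at -0.30.

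The 2 members that rose, NDUFB11 and NDUFA1, are X-linked accessory subunits of the complex I membrane arm. NDUFB11 had 63.4, 69.9 and 73.0 FPKM with ZRANB1 siRNA, against 54.1, 56.7 and 57.7 FPKM with scramble siRNA (0.29, SE 0.081, adjusted p = 0.032). NDUFA1 had 156, 158 and 171 FPKM with ZRANB1 siRNA, against 130.3, 133 and 139.8 FPKM with scramble siRNA (0.26, SE 0.075, adjusted p = 0.034, limma). Neither pair of groups overlapped. All 3 ZRANB1 siRNA values lay above the scramble siRNA values for 3 members and for 18.5% of all tested genes. COX7B, the remaining X-linked member, had 207, 236 and 246 FPKM with ZRANB1 siRNA, against 172, 192 and 209.6 FPKM with scramble siRNA, and was not called (0.26, adjusted p = 0.11). Over the 354 other tested genes of the X chromosome the median was 0.25 and 32.5% were called higher; over the 616 of chromosome 12 the median was -0.14 and 18.2% were called lower, and there 4 of 5 members fell. For 52 of 60 uncalled members the interval lay within 0.5 of 0. The epithelial list summed to 36.4 FPKM with ZRANB1 siRNA and 56.1 with scramble siRNA, mostly KRT19. EPCAM was lower too, while CLDN4 (0.741 and 0.421) and CDH1 (near 0 in both) were higher. The fibroblast list summed to 17.8 and 8.83, mostly COL1A1 (17.0 and 8.14), with PDGFRB lower (0.628 and 0.686). The luminal list summed to 545 and 627, with GATA3 higher (4.80 and 3.70), and the blood and endothelial list to 43.7 and 42.8. Their part in the result was not tested.

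The third comparison was of the controls, scramble siRNA against scramble shRNA, because these set the level against which EZH2 shRNA and ZRANB1 siRNA are read. Here 37 members rose and 5 fell, 58.3% of members against 50.6% of all tested genes. By direction, 51.4% of members were called higher, against 25.5% of all genes, and 6.94% lower, against 25.1%. The median log2 fold change was 0.27 for the members and 0.01 for all genes. It was 0.17 in complex I, 0.33 in complex II, 0.41 in complex III, 0.30 in complex IV and 0.32 in complex V. The delivery of the RNA, the culture and the library preparation of the 2 control groups cannot be told apart. The epithelial list summed to 56.1 FPKM with scramble siRNA and 12.8 with scramble shRNA, mostly KRT19 (47.4 and 7.53). EPCAM was higher too (8.23 and 3.53), while CLDN4 (0.421 and 1.65) and CDH1 (near 0 in both) were lower. The fibroblast list summed to 8.83 and 25.4, mostly COL1A1 (8.14 and 24.6). COL1A2, DCN and LUM were lower but near 0, and PDGFRB was higher (0.686 and 0.466). The luminal list summed to 627 FPKM with scramble siRNA and 469 with scramble shRNA, mostly KRT18 (353 and 272) and KRT8 (267 and 188). GATA3 of that list was lower with scramble siRNA (3.70 and 6.74). The blood and endothelial list summed to 42.8 and 37.0, mostly CD68 (40.2 and 34.4). HBB was higher (2.24 and 0.997), PECAM1 was lower (0.316 and 1.57), and PTPRC and VWF were lower but near 0 in both. The MDA-MB-231 lineage list summed to 3406 and 4109. Of its genes VIM (2573 and 2836), S100A4 (16.3 and 406) and CD44 (118 and 264) were lower with scramble siRNA. CAV1 (333 and 273), AXL (349 and 316) and ZEB1 (16.0 and 13.9) were higher. Their part in the result was not tested.

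In complex I, 12 of 35 members rose and 4 fell. NDUFA12 had 231, 236 and 257 FPKM with scramble siRNA, against 139, 145 and 146 FPKM with scramble shRNA (0.75, SE 0.075, adjusted p = 8.85e-06, limma). NDUFS6, a zinc-binding N module subunit, was at 0.73 and NDUFA9 at 0.63. By module, 4 of 10 N module members, 2 of 5 Q module members and 4 of 11 members of the distal membrane arm rose. Of 9 tested members listed at the junction of the membrane arm and the matrix arm, NDUFA9 among them, 2 rose. In complex II, SDHA, the flavoprotein, had 80.5, 89.4 and 97.5 FPKM with scramble siRNA, against 58.4, 59.8 and 65.7 FPKM with scramble shRNA (0.53, adjusted p = 0.0015), and SDHC rose too (0.47); SDHB (0.03) and SDHD (0.19) were not called.

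In complex III, 7 of 9 members rose. UQCRC1, a core protein, had 252, 279.9 and 299 FPKM with scramble siRNA, against 151, 172 and 176 FPKM with scramble shRNA (0.73, SE 0.093, adjusted p = 5.37e-05, limma). CYC1 was at 0.68, UQCRQ at 0.66 and UQCR11 at 0.47; UQCRH (0.08) and UQCRB (0.27) were not called. In complex IV, 9 of 12 tested members rose and 1 fell. COX6A1 had 581, 631 and 671 FPKM with scramble siRNA, against 302, 348 and 387 FPKM with scramble shRNA (0.86, SE 0.089, adjusted p = 1.09e-05), the largest rise of any member. COX7C had 1130.1, 1153 and 1156 FPKM with scramble siRNA, against 676, 746 and 822 FPKM with scramble shRNA (0.62), and COX4I1 was at 0.65. The control groups did not overlap for any of the members of complexes III and IV named here as risen. All 3 scramble siRNA values lay above the scramble shRNA values for 41 members and for 30.8% of all tested genes.

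In complex V, 7 of 12 tested members rose. ATP5B had 666, 679 and 689.6 FPKM with scramble siRNA, against 409, 433 and 436 FPKM with scramble shRNA (0.67, SE 0.05, adjusted p = 7.64e-07, limma), the lowest p of any member. Of the c subunit genes, ATP5G2 (0.81) and ATP5G1 (0.72) rose and ATP5G3 (0.21) was not called. ATP5C1, the gamma subunit of the rotor, was at 0.05 and ATP5D, the delta subunit, at 0.11, neither called, beside 0.28 for ATP5A1, the alpha subunit, which rose.

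**Figure D3:**
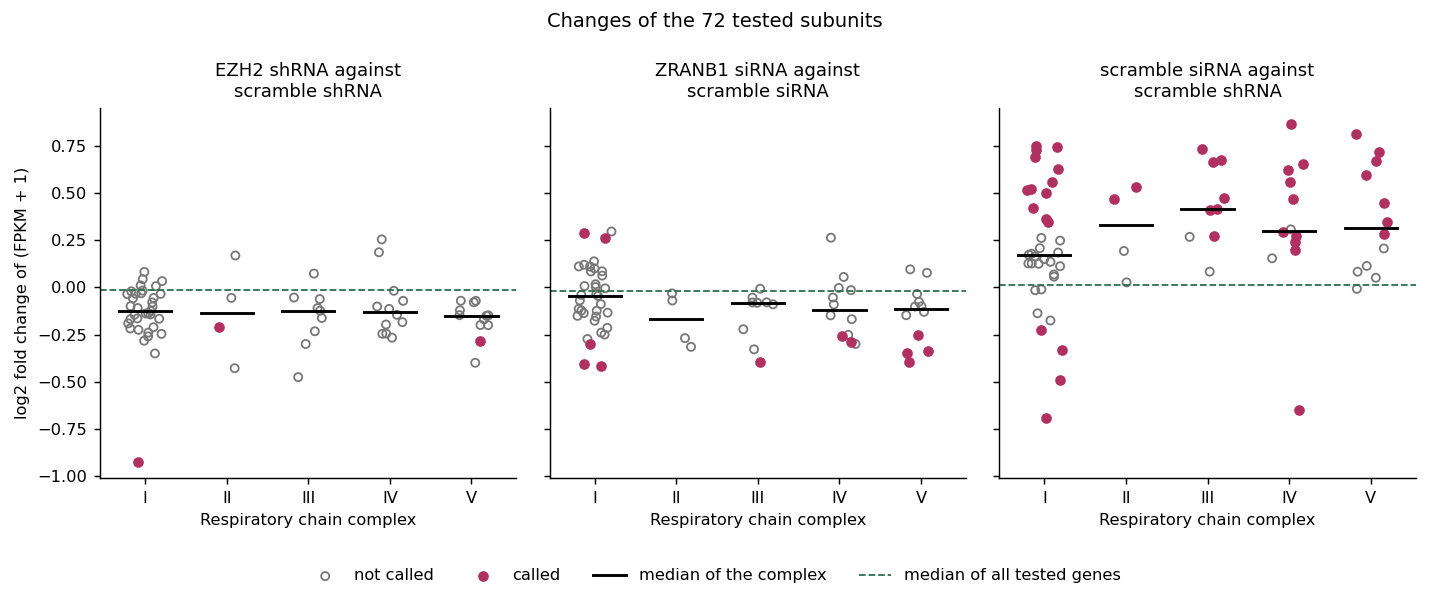
Log2 fold change of FPKM + 1 for the 72 tested subunits by complex in 3 comparisons; filled points passed the test, short lines are the medians of the complexes and the dashed line is the median of all tested genes. The complex medians lie between -0.12 and -0.15 in the EZH2 shRNA comparison and between 0.17 and 0.41 in the comparison of the controls.

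The 5 members that fell with scramble siRNA were NDUFB11, COX7B, NDUFA1, NDUFB1 and NDUFS5. NDUFB11 had 54.1, 56.7 and 57.7 FPKM with scramble siRNA, against 88.3, 90.5 and 94.9 FPKM with scramble shRNA (-0.69, SE 0.081, adjusted p = 2.87e-05). COX7B had 172, 192 and 209.6 FPKM with scramble siRNA, against 268, 299 and 335 FPKM with scramble shRNA (-0.65, SE 0.10, adjusted p = 2.79e-04). NDUFA1 had 130.3, 133 and 139.8 FPKM with scramble siRNA, against 175, 191 and 204 FPKM with scramble shRNA (-0.49, SE 0.075, adjusted p = 2.27e-04, limma). These 3 are all the members on the X chromosome, and none overlapped between the controls. All 3 scramble siRNA values lay below the scramble shRNA values for 29.2% of all tested genes. NDUFB1 (-0.33, adjusted p = 0.048) and NDUFS5 (-0.22, adjusted p = 0.018), both membrane arm subunits, are on chromosomes 14 and 1.

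The position of the genes was therefore set beside the change; this was done after the values were seen. Among the 354 other tested genes of the X chromosome the median was -0.47 between the controls, and 60.2% were called lower. On chromosome 12 the 616 others had a median of 0.35, with 54.2% called higher, and all 5 members there (NDUFA9, COX6A1, ATP5G2, ATP5B and NDUFA12) rose, with a median of 0.75. The other medians ran from -0.35 on chromosome 4 to 0.24 on chromosome 17. Over the 72 members, the change of a member and the median of the other genes of its chromosome had r = 0.73 (rho = 0.60); r was 0.60 over the 69 members without the X chromosome and 0.48 over the 64 without X and 12. These correlations describe genes measured in the same 6 libraries and have no p. Most members lay above their chromosome, by a median of 0.27. On chromosome 11, with a median of -0.18, all 6 members were uncalled, with a median of 0.16. In the ZRANB1 siRNA comparison, which shares the scramble siRNA libraries, r was 0.64 (0.51 without X), and in the EZH2 shRNA comparison 0.26.

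**Figure D4:**
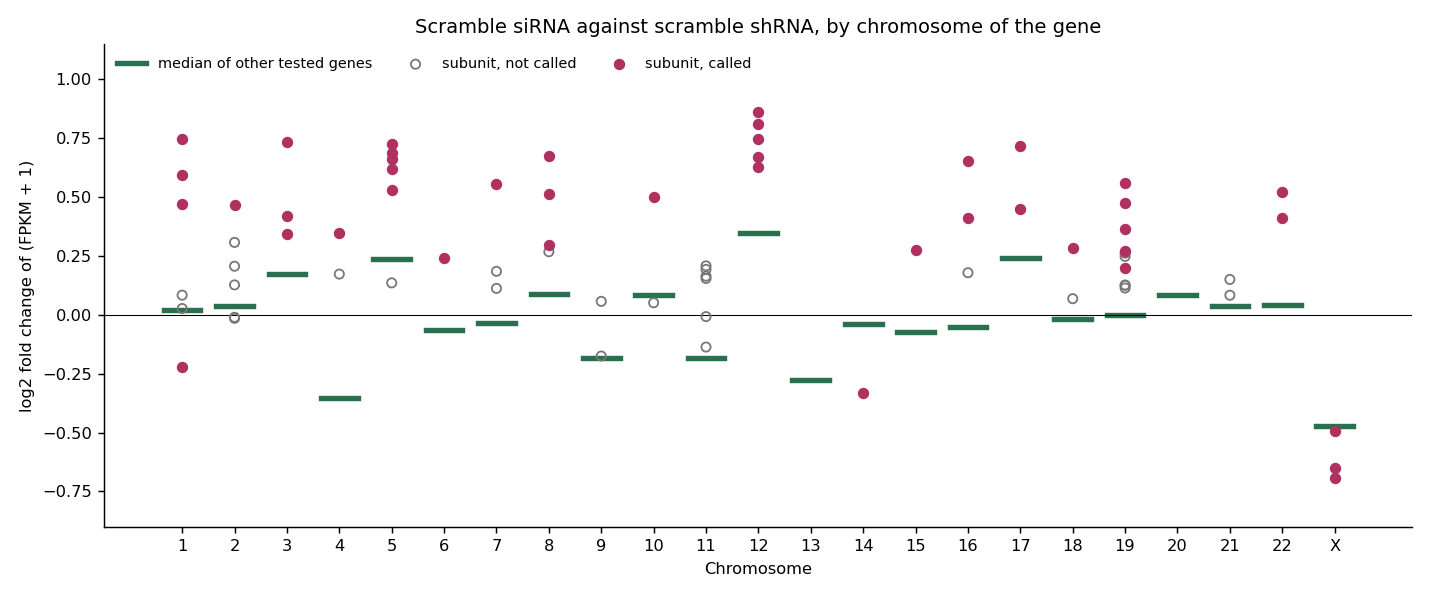
Log2 fold change of FPKM + 1, scramble siRNA against scramble shRNA, of each tested subunit (points, filled where called) by chromosome, with the median of the other tested genes of that chromosome (lines). The 3 X-linked subunits lie between -0.69 and -0.49 around a chromosome median of -0.47, and the 5 on chromosome 12 lie between 0.63 and 0.86 above a median of 0.35.

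The promoters of members at both ends of this comparison are shown, the 3 X-linked genes that fell and 2 genes of chromosome 12 that rose, because the members moved in opposite directions by chromosome while coding for parts of the same complexes. Each is the 150 bases before the gene's start in RefSeq on GRCh38.p14, read 5′ to 3′ on the gene's strand; capitals mark an exact match to a searched motif.
NDUFA1 (chrX:119871682-119871831, plus strand): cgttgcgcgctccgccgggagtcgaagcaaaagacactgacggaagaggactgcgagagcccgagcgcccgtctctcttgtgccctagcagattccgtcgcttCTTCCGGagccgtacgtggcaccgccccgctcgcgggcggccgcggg
NDUFB11 (chrX:47144703-47144852, minus strand): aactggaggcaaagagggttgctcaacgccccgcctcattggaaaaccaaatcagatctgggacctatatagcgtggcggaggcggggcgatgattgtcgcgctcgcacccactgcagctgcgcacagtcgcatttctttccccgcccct
COX7B (chrX:77899318-77899467, plus strand): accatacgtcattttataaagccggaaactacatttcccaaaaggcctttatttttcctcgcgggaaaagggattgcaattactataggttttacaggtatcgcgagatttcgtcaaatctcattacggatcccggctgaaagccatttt
COX6A1 (chr12:120437963-120438112, plus strand): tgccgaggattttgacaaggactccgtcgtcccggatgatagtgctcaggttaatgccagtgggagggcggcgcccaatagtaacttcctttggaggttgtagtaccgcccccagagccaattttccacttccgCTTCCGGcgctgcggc
NDUFA12 (chr12:95003698-95003847, minus strand): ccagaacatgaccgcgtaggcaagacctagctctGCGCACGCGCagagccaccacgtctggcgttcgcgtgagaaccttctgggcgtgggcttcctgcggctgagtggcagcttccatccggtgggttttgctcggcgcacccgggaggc

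The motifs searched on both strands were GCGCA, any base and GCGC for NRF1, CCGGAAG for the ETS core bound by GABP and AAGATGG for YY1. The ETS letters end in the 3 with which the YY1 letters begin, and 0 of 61 member promoters held both in such an overlap. In the stretches shown, NDUFA1 and COX6A1 each hold the ETS letters on the opposite strand, NDUFA12 holds the NRF1 letters, and NDUFB11 and COX7B hold none of the 3. Over windows of 300 bases (250 before to 50 after the start), 61 of the 72 tested members matched a RefSeq promoter. Of these, 23.0% held the NRF1 letters, against 12.4% of 9317 promoters of tested genes and 6.28% of all 27305 promoters in the table. The ETS letters were in 31.1% of members, 20.4% of tested genes and 10.7% of all, and the YY1 letters in 24.6%, 8.06% and 6.06%. Among the 30 members called higher between the controls that had a promoter, 33.3% held the NRF1 letters, against 12.9% of the 31 other members; for the ETS letters the shares were 23.3% and 38.7%, and for YY1 33.3% and 16.1%. These are matches of letters, given as a description.

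The subunits are mostly short, and the lengths were set beside the changes of the controls. Of the 72 members, 15 had a coding length under 300 bases, and their median was 0.35, beside 0.20 for 162 other genes of that length. Between 300 and 599 bases the medians were 0.24 for 34 members and 0.13 for 1068 others, and between 600 and 1199 bases 0.27 for 13 members and 0.05 for 3106 others. The 10 members of 1200 bases or more had a median of 0.35, beside -0.03 for 6540 others. In the EZH2 shRNA comparison the medians of the members by length were between -0.15 and -0.12, and those of the other genes between -0.03 and -0.01.

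The difference between the effects of EZH2 shRNA and ZRANB1 siRNA was tested as a contrast (EZH2 shRNA effect minus ZRANB1 siRNA effect). It was called for NDUFA1 (-0.48, SE 0.11, adjusted p = 0.014) and for COX7B (-0.53, SE 0.14, adjusted p = 0.039, limma), 2 of 72 members against 10.5% of all genes. Both were in the lower direction, in which 6.91% of all genes were called, against 3.58% in the higher. NDUFA1 had 151, 167 and 171 FPKM with EZH2 shRNA, against 175, 191 and 204 FPKM with scramble shRNA, a log2 fold change of -0.22, beside 0.26 in the ZRANB1 siRNA comparison. COX7B had 237, 243 and 268 FPKM with EZH2 shRNA, against 268, 299 and 335 FPKM with scramble shRNA, a log2 fold change of -0.27, beside 0.26. The call of COX7B was lost in 9 of the 19 other fits. NDUFB9 (-0.51, adjusted p = 0.051), NDUFS5 (-0.33, adjusted p = 0.054), NDUFB11 (-0.34, adjusted p = 0.086) and COX7A2L (0.34, adjusted p = 0.13) came next and were not called; the 95% interval for NDUFB9 ran from -0.83 to -0.18.

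Partners of the complexes outside the symbol rule were followed too. CYCS, cytochrome c itself, had group means of 43.0 ± 7.56 FPKM with EZH2 shRNA, 48.2 ± 4.14 with scramble shRNA, 47.3 ± 2.48 with ZRANB1 siRNA and 44.8 ± 2.59 with scramble siRNA (SD, n = 3 each), and was called in none of the 3 comparisons. ATPIF1, the inhibitor protein of ATP synthase, had 136, 143 and 145 FPKM with ZRANB1 siRNA, against 102, 104 and 124 FPKM with scramble siRNA (0.36, adjusted p = 0.023, limma). It fell with scramble siRNA relative to scramble shRNA (-0.51), where most ATP synthase subunits rose. NDUFAB1, the mitochondrial acyl carrier protein held in complex I, was at -0.27 with ZRANB1 siRNA (adjusted p = 0.023) and at 0.44 between the controls. The subunits encoded by the mitochondrial genome had no row under the symbols searched and were not analysed here.

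Assembly factors of the complexes were counted in the same comparisons. Between the controls 20 of 43 tested factors rose (46.5%, against 25.5% of all tested genes) and 1 fell (2.33%, against 25.1%). For complex IV, 11 of 20 tested factors rose and none fell with scramble siRNA, with a median of 0.29; COX14 was at 0.88 and LRPPRC, which stabilises the messengers of the mitochondrial genome, at 0.87. For complex III 4 of 5 rose, among them UQCC2 (0.63), and for complex I 4 of 13 rose, among them NDUFAF6 (0.65), and 1 fell, NDUFAF5 (-0.41). In the EZH2 shRNA comparison none of the 43 factors tested was called by limma, and 5 (11.6%) passed at an unadjusted p below 0.05, against 21.4% of all tested genes. With ZRANB1 siRNA, 3 of 43 fell (6.98%, against 6.5% of all tested genes), a share near the background. They were CMC2 (-0.38, adjusted p = 0.0068), UQCC1 (-0.29, adjusted p = 0.023) and LRPPRC (-0.32, adjusted p = 0.039, limma).

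Other mitochondrial genes were counted from lists. Of 74 mitochondrial ribosomal proteins, 40 rose and none fell with scramble siRNA relative to scramble shRNA, with a median of 0.33. Called higher were thus 54.1%, against 25.5% of all tested genes. With EZH2 shRNA 2 fell, MRPS15 and MRPL11 (2.70%, against 3.03% of all tested genes called lower). With ZRANB1 siRNA 3 fell (4.05%, against 6.5%). Neither of these lower shares was above the background. Of 13 citric acid cycle enzymes, SUCLG2, the GTP-forming succinyl-CoA ligase subunit, rose with EZH2 shRNA (0.37, adjusted p = 0.023), at 29.2, 29.2 and 31.2 FPKM, against 20.8, 23.3 and 24.6 FPKM with scramble shRNA. It fell with ZRANB1 siRNA (-0.41, adjusted p = 0.0058), as did CS (-0.33) and FH (-0.31, all limma). Called lower there were 4 of the 13 enzymes (30.8%, against 6.5% of all tested genes). With EZH2 shRNA 1 of 13 was called higher (7.69%, against 3.39%). Of 13 tested regulators of mitochondrial gene expression, none was called with EZH2 shRNA or ZRANB1 siRNA, where limma gave 0 and 1 at an unadjusted p below 0.05, beside 21.4% and 29.5% of all tested genes. Between the controls 5 rose (38.5%, against 25.5% of all tested genes), among them MYC (0.77) and TFAM (0.56), the mitochondrial genome's transcription factor. YY1 alone fell (-0.40), which is 7.69% against 25.1% of all tested genes. NRF1 was at 0.18 and not called. Of 5 tested hypoxia-responsive mitochondrial genes, BNIP3, a mitophagy receptor, had 127, 135 and 159 FPKM with ZRANB1 siRNA, against 79.0, 80.1 and 91.6 FPKM with scramble siRNA (0.74, adjusted p = 0.0057), and PDK1, which restrains pyruvate dehydrogenase, was at 0.42 (adjusted p = 0.014). These were the 2 of 5 called with ZRANB1 siRNA (40.0% higher, against 10.1% of all tested genes). Both fell with scramble siRNA relative to scramble shRNA, by 1.45 and 1.06 on the log2 scale. Of the 5, 3 were called lower between the controls (60.0%, against 25.1%).

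C15orf48, a relative of NDUFA4 that can take its place in complex IV, was looked up after the values were seen. It had 174, 187 and 212 FPKM with ZRANB1 siRNA, against 2.12, 2.46 and 3.32 FPKM with scramble siRNA (log2 fold change 5.73, adjusted p = 3.64e-11, limma). It had 410.1, 437 and 441 FPKM with EZH2 shRNA, against 615, 661 and 713 FPKM with scramble shRNA (-0.62, adjusted p = 0.0093). Thus the scramble siRNA libraries stood apart from the other 9 at this gene. NDUFA4 itself had 30.0, 36.9 and 41.7 FPKM with ZRANB1 siRNA, against 29.5, 34.1 and 40.8 FPKM with scramble siRNA, and was not called with EZH2 shRNA or ZRANB1 siRNA.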

How the data were processed

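RNA from 12 libraries of LM2 cells was sequenced. The authors deposited 1 table of FPKM values for 26006 rows. The submitters' processing notes list build hg19 with SAMtools, TopHat2 2.1.1, Cuffdiff 2.2.1 and Cufflinks 2.2.1; options, annotation and scaling are not given in the sources. Depth per library is unknown, and 3 values a group limit the precision. Nothing says that the libraries came from separate cultures, so p-values measure the spread between libraries, which may be technical. Where a group had 3 different values, 100% of rows held them sorted as text, so columns did not follow libraries.

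A repeated symbol was represented by its highest row. The 11929 genes averaging 1 FPKM or more were tested as log2(FPKM + 1) with limma 3.58.1 in R 4.3.3, with 4 group means, 8 residual degrees of freedom, a variance trend and Benjamini-Hochberg adjustment over all of them; called means an adjusted p below 0.05. Fold changes on this scale understate the change of low genes. The steps were tested on simulated data. Chromosomes and promoters came from RefSeq GRCh38.p14 and coding lengths from GENCODE 29, not the authors' build; 96.9% of tested genes had a chromosome and 91.8% a coding length. The rows KCTD14-NDUFC2-NDUFC2-KCTD14, ATP5E-SLMO2 and ATP5J2-ATP5J2-PTCD1-PTCD1, which merge loci, lay outside the symbol rule. Single values of some genes are not reported here. The members, the lists and the tests were chosen with earlier results of these data known. Members were named by a rule of up to 4 called per complex, direction and comparison, 6 for the difference of effects, the extremes of level and the isoform sets; called genes of the lists were named likewise. Alternatives tried were no filter, a pseudocount of 0.1, the 6 values compared, a filter at 5 FPKM, no trend, 1 scaling factor per group, summed rows, small RNAs left out, a log2 fold change of at least 0.5, and leaving out each value after a random order.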

Additional observations from a re-analysis of the deposited data

Results flagged for a closer look

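The effects of EZH2 shRNA and ZRANB1 siRNA, each against its own scramble control, differed by the test of the difference itself (limma, Benjamini-Hochberg adjustment over all tested genes) for 1251 of 11929 tested genes (10.5%). Among the subunits and the other genes followed here these were 2 subunits and 8 others; a negative difference means a lower effect with EZH2 shRNA. Of the subunits these were COX7B, with -0.529 (adjusted p = 0.0395), and NDUFA1, with -0.481 (adjusted p = 0.0139), both X-linked. In the X chromosome the median of the other genes was 0.06 with EZH2 shRNA and 0.25 with ZRANB1 siRNA; the part of this in the result was not tested.

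Of the partners, ATPIF1 differed by -0.479 (adjusted p = 0.0405) and ATP5S, a factor linked to ATP synthase, by 0.691 (adjusted p = 0.0201). LRPPRC differed by 0.463 (adjusted p = 0.0497), and SUCLG2 by 0.775 (adjusted p = 0.0013), the last with a rise in the EZH2 shRNA comparison and a fall in the ZRANB1 siRNA comparison. PDK1 differed by -0.502 (adjusted p = 0.0416) and BNIP3 by -0.832 (adjusted p = 0.0269). EZH2 itself differed by -0.393 (adjusted p = 0.0241): it was lower in both comparisons, with log2 fold changes of -1.06 with EZH2 shRNA and -0.66 with ZRANB1 siRNA. C15orf48 differed by -6.36 (adjusted p = 9.21e-10).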

How the results depend on the processing

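No called member changed sign in any other fit. Of the uncalled members, 23 with EZH2 shRNA, 20 with ZRANB1 siRNA and 5 between the controls changed sign in at least 1, all when 1 value was left out except COX7A2, NDUFA10 and UQCRH with ZRANB1 siRNA, which also did so with 1 scaling factor per group. The medians of the members and of each complex kept their sign in the other fits of the 3 comparisons, but some moved. Leaving out 1 value put the complex I median with ZRANB1 siRNA (-0.045) between -0.096 and -0.011. It put the complex IV median with EZH2 shRNA (-0.129) between -0.181 and -0.079. With EZH2 shRNA 3 members were called; without the filter 5 were, with the 6 values compared 1 and with a log2 fold change of at least 0.5 only 1 (NDUFB9), and leaving out 1 value gave 2 to 5. With ZRANB1 siRNA 12 were called; 0 reached a log2 fold change of 0.5, and leaving out 1 value gave 5 to 12. Between the controls 42 were called, 23 of at least 0.5, and leaving out 1 value gave 37 to 44. The difference of effects was called for 2 members, for 4 with 1 scaling factor per group, for 1 with a difference of at least 0.5, and for 1 to 3 when 1 value was left out. The causes were not tested, other than the fewer values or genes that these settings use. Scaling moved the median of all genes by under 0.1. No paired analysis was possible because the columns did not follow libraries. Differences in members under the interval limits given above cannot be seen with 3 values a group.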
